A study of Mus musculus with 24 samples.

Results

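The liver makes most of the proteins that clot blood and most of the complement proteins of plasma. Counts of 41 such genes were followed in mouse livers of 6 genotypes, and the genes were taken as the rows of the count table whose Ensembl identifiers carry the 41 chosen symbols. They are 41 of 33019 gene identifiers in the table, and all 41 passed the filter on low counts that left 15851 genes to test. Of the 41 genes, 25 act in coagulation, fibrinolysis or closely related plasma functions and 16 in complement.

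RNA from livers of 2-month-old C57BL/6J mice was profiled by sequencing of polyadenylated RNA, with 4 libraries per genotype. The mutant genotypes carry a hepatic deletion of Atg5, a gene needed to build autophagosomes (Atg5 KO), of Tsc1, a brake on the growth kinase complex mTORC1 (TSC1 KO), or of both (DKO). The triple knockouts lack Atg5 and Tsc1 and in addition Sqstm1, whose product p62 carries cargo into autophagosomes (p62 TKO), or Nfe2l2, whose product Nrf2 drives antioxidant genes (Nrf2 TKO). Wild-type livers (WT) served as controls for all of them. DKO and both triple knockouts therefore share the loss of Atg5 and Tsc1, so a triple knockout was set against DKO to ask what the third deletion changed. The labels give neither the Cre driver nor sex, litter or batch, and whether libraries are separate animals is not stated, so p-values reflect only how far these libraries spread.

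In coagulation, zymogens secreted by hepatocytes are cleaved in turn until thrombin, made from prothrombin, cuts fibrinogen into fibrin, while serpins and the protein C system hold the cascade back and plasmin dissolves the clot. Complement is started by antibody and C1, by sugar-binding lectins with their MASP proteases, or by the alternative pathway. All routes meet at C3 and then C5, after which C6, C7, C8 and C9 assemble into the membrane attack complex. Several of these genes, the fibrinogen chains and C3 among them, are induced in hepatocytes by interleukin 6 in the acute-phase response.

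Total counts ran from 10494080 to 13057467 per library. Levels are in CPM after TMM scaling, and a value after ± is the SD over the 4 libraries of a genotype. Changes are log2 fold changes ± SE, with adjusted p-values from edgeR's quasi-likelihood test over all 15851 genes (Benjamini-Hochberg), and a gene was called at an adjusted p under 0.05. Nfe2l2 was at 11.7 ± 4.24 CPM in Nrf2 TKO and 113 ± 32.7 CPM in DKO. Sqstm1 was at 456 ± 226 CPM in p62 TKO and 961 ± 157 CPM in DKO. Its counts were thus lower in p62 TKO but do not by themselves show its loss. Whole-gene counts of Atg5 (43.0 ± 4.27 CPM in Atg5 KO, 26.8 ± 3.75 in WT) and Tsc1 (31.0 ± 1.99 in TSC1 KO, 35.1 ± 1.53 in WT) did not show the deletion of these genes. Scaling by total counts alone raised the median log2 fold change of all genes in DKO versus WT to 1.07, against 0.08 with TMM, so directions that turn with the scaling are stated. Markers of hepatocytes were present in every group, with all 16 lower in DKO than in WT (2.77 ± 0.428% of counts in DKO, 8.91 ± 1.26% in WT), and all 12 cholangiocyte markers were higher in DKO, at 1.08 to 1.62% of counts in DKO and 0.0066 to 0.00915% in WT. Over all genes 32.3% were called lower and 37.1% higher in DKO than in WT. In tissue RNA, fewer cells of a type and less RNA per cell cannot be told apart, and the part of cell composition in the changes below was not tested.

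In DKO livers every member was lower than in WT. All 41 were called lower, where 32.3% of all genes were, and none was called higher, where 37.1% of all genes were; DESeq2 gave the same 2 counts, and no member was higher at an unadjusted p under 0.05. The median log2 fold change of the members was -2.85, against 0.08 over all genes, with a range of -7.85 to -0.40, and in 40 of the 41 all DKO libraries lay below all WT libraries, as they did in 28.3% of all genes. The 41 genes held 2.20 to 2.37% of counts in DKO libraries and 5.58 to 8.34% in WT libraries. With total counts alone 38 were called lower, where 11.1% of all genes were, with a median of -1.86, while Pros1 (0.60) and C2 (0.26) turned higher, where 70.4% of all genes were, and Masp1 (-0.18) was not called.

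**Figure D1:**
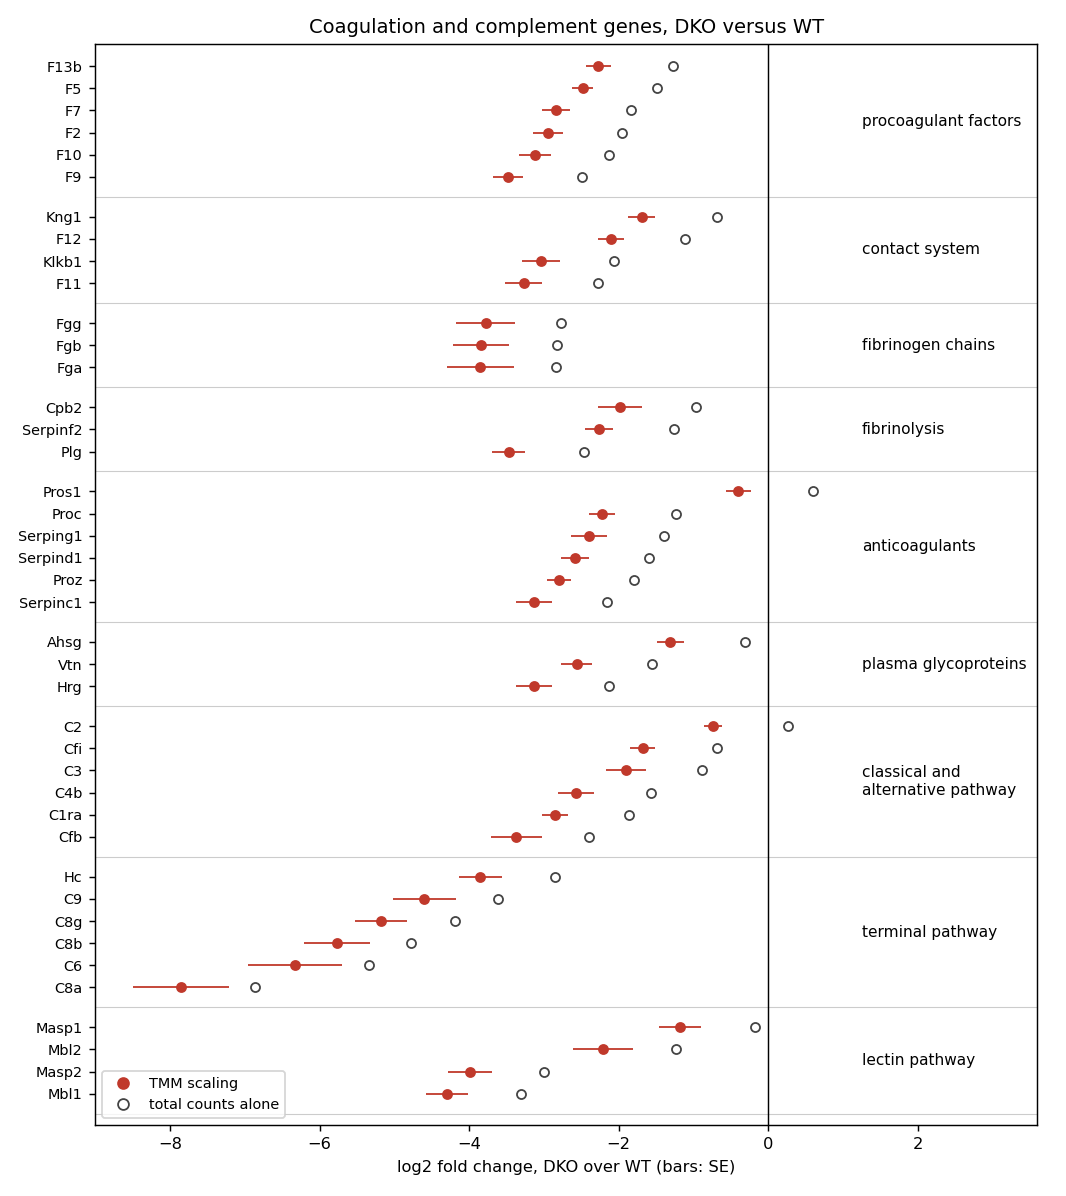
Log2 fold change of each of the 41 genes in DKO over WT (x axis), grouped by role. Filled points with SE bars use TMM scaling and open points total counts alone. The terminal pathway reaches furthest left, from -3.85 for Hc to -7.85 for C8a, and Pros1 and C2 are the open points right of 0.

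The 5 largest drops were all in genes of the membrane attack complex, C8a, C6, C8b, C8g and C9. With Hc, the 6 members of the terminal pathway had a median log2 fold change of -5.48 in DKO versus WT, and all 6 were called lower with either scaling. C8a (ENSMUSG00000035031, chr4:104815679-104876398, GRCm38), the alpha chain of C8 and one of the chains that insert into the target membrane, had 11.7, 6.96, 6.15 and 2.96 CPM in DKO libraries and 1584, 1670.0, 1341 and 1819 CPM in WT libraries. The groups were far apart, the highest DKO library lying more than 100-fold below the lowest WT library, and the drop was 231-fold (-7.85 ± 0.64, adjusted p = 7.9e-10). C6, which binds C5b and starts the complex, had 9.65, 13.6, 3.91 and 3.26 CPM in DKO and 486, 621, 636 and 687 CPM in WT. Its DKO libraries fall into 2 higher and 2 lower ones, all below every WT library, and the change was -6.33 ± 0.63, adjusted p = 1.8e-08. The counts behind these DKO values were 59 to 205 reads for C8a and 65 to 230 for C6.

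The other terminal genes fell as well. C8b, the beta chain of C8, had 14.4, 13.8, 11.4 and 10.2 CPM in DKO and 640.3, 757, 581 and 741 CPM in WT (-5.77 ± 0.44, adjusted p = 2.1e-10). C8g, which encodes the lipocalin-like gamma chain, had 25.4, 19.4, 9.07 and 6.97 CPM in DKO and 543, 536, 560.5 and 557 CPM in WT (-5.18 ± 0.35, adjusted p = 2.3e-11). WT libraries lay within a narrow band for C8g, whereas the DKO libraries differed among themselves by more than a factor of 3. C9, whose protein polymerizes into the pore, had 68.8, 75.1, 54.7 and 23.3 CPM in DKO and 1426, 1614, 1214 and 1133 CPM in WT (-4.60 ± 0.42, adjusted p = 2.2e-09). Hc, which encodes C5, had 173, 192, 154 and 127 CPM in DKO and 2671, 2755, 1913 and 1935 CPM in WT and showed the smallest drop of the 6 (-3.85 ± 0.29, adjusted p = 1.1e-10). C3, which feeds this pathway, was at 3510.1 ± 378 CPM in DKO and 13088 ± 3916 CPM in WT (-1.90 ± 0.27, adjusted p = 1.4e-06), so the log2 ratio of C3 to Hc was 4.14 to 4.79 in DKO and 2.06 to 3.17 in WT.

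**Figure D2:**
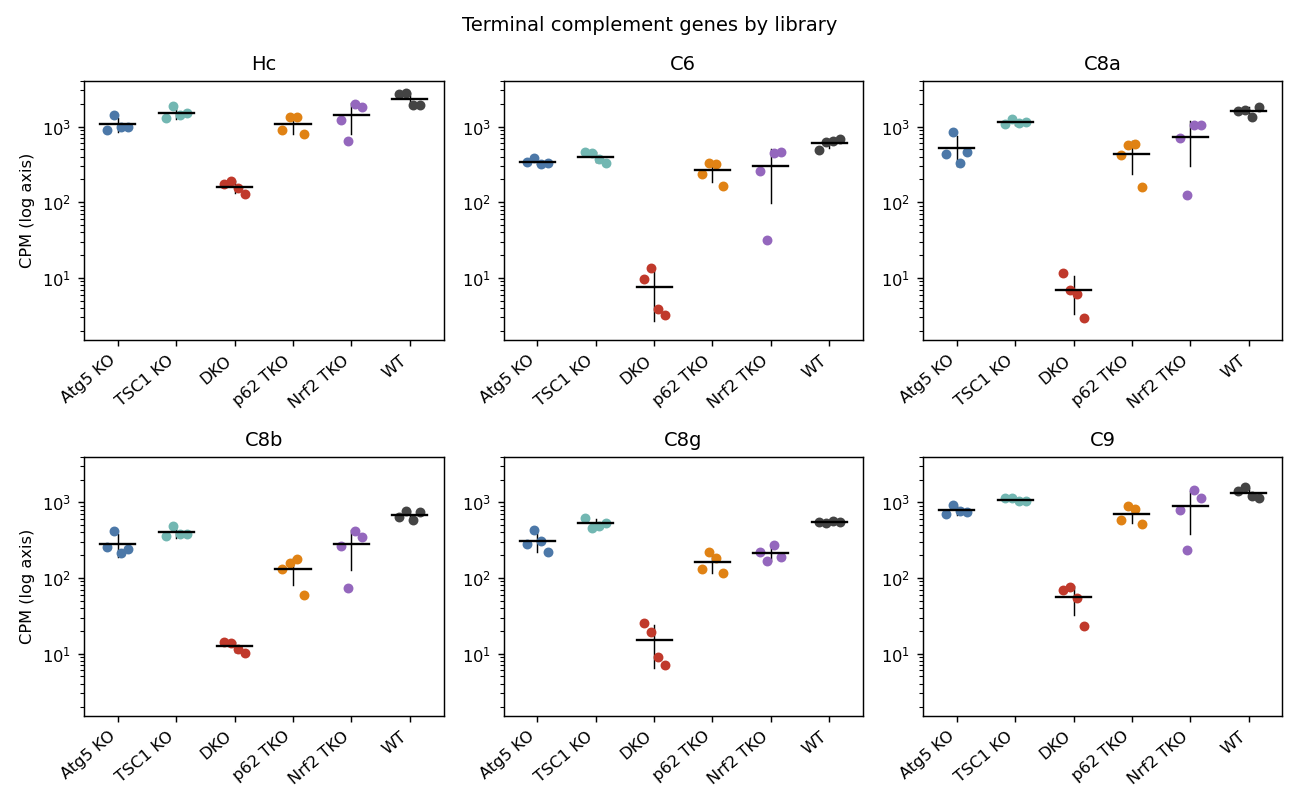
CPM of 6 terminal complement genes in each library, on a log axis, for the 6 genotypes. Points are libraries, horizontal bars means and vertical bars SD (n = 4). DKO libraries sit lowest in every panel, and 1 Nrf2 TKO library sits below the other 3 for C6, C8a, C8b and C9.

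Upstream stretches are shown for C8a, C8b, C6 and Hc, the 4 of the 6 terminal genes with a motif match before their first listed start. C9 and C8g, which fell as well, have none there. The stretches are the 250 bases upstream of the RefSeq start on GRCm38.p6, which gave an entry for 32 of the 41 members. Letters of 6 motifs were searched on both strands, namely HNF1 (TTAAT, any base, then ATTAA), HNF4 (CAAAGTNCA), C/EBP (TTGNNCAA), FOXA (TGTTTNC), STAT (TTCCNNGAA) and the antioxidant response element bound by Nrf2 (TGACNNNGC). Capitals mark matches, which are a description of letters and not shown sites.
C8a upstream (chr4:104876399-104876648, minus strand) holds 1 FOXA match, on the opposite strand of the gene.
C8a: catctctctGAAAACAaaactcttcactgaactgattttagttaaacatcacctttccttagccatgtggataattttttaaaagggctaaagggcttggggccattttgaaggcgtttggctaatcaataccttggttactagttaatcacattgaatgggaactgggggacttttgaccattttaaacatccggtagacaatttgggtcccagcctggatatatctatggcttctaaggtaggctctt
C8b upstream (chr4:104766067-104766316, plus strand) holds 2 FOXA matches close to the start.
C8b: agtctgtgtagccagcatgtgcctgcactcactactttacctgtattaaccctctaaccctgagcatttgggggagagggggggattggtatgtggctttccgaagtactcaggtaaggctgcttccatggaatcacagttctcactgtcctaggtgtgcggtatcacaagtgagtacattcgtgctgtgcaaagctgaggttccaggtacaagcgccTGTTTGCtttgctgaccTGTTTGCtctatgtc
C6 upstream (chr15:4726960-4727209, plus strand) holds 1 FOXA match next to the RefSeq start. The annotated gene starts 35 bases before that start, so this match lies inside it.
C6: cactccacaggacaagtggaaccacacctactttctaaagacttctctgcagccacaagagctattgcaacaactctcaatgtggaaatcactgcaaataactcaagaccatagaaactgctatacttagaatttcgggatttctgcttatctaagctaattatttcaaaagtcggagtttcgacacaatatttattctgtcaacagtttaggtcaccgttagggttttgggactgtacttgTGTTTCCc
Hc upstream (chr2:35061413-35061662, minus strand) holds the HNF1 match, the only one among the members.
Hc: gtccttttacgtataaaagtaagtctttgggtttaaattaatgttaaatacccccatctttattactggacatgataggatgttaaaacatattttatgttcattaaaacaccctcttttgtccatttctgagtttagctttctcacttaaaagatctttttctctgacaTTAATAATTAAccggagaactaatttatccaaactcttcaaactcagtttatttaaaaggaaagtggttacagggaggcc

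Members were counted by their first listed start. Across the 32, the FOXA letters were found upstream of 11 (34.4%) and of 17.8% of all 32851 RefSeq starts with such a window. For C6, C1ra and Klkb1 the FOXA match is upstream of the RefSeq start but inside the annotated gene. C/EBP letters were found upstream of 6 (18.8%) and of 5.65% of all starts, and STAT letters upstream of 5 (15.6%) and of 4.06% of all. C8g has a second listed start, inside the gene, which also holds a C/EBP match and is not in these counts. The HNF1 letters were upstream of 1 member (3.12%) and of 0.116% of all starts, and the HNF4 letters of 1 (3.12%, F9) and of 1.19% of all. The antioxidant response element was upstream of 3 members (9.38%; Serpind1, Klkb1 and Ahsg) and of 10.2% of all starts. The window of Ahsg lies inside the annotated gene. These 3 genes had log2 fold changes of 2.17, 2.75 and 1.29 in Nrf2 TKO versus DKO. In that comparison 39 of the 41 members were called higher, where 26.7% of all genes were. Such a rise was therefore not particular to members with these letters.

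C8a and C8b lie side by side on chromosome 4 and point towards each other, and they did not fall by the same amount. The log2 ratio of C8a to C8b was -1.78 to -0.30 in DKO libraries and 1.14 to 1.31 in WT libraries and so was lower in every DKO library than in every WT library. In p62 TKO the ratio was 1.43 to 1.89 and in Nrf2 TKO 0.76 to 1.57.

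The 3 chains of fibrinogen, the precursor of fibrin, fell together. Per kilobase of exon, Fgg (4485 CPM per kb), Fga (4189) and Fgb (3246) were 3 of the 4 most abundant members in WT livers, with Ahsg (4019), which encodes fetuin A. Fga (ENSMUSG00000028001, chr3:83026076-83033627) had 773, 778, 912 and 1026 CPM in DKO libraries and 13187, 12633, 6968 and 17651 CPM in WT libraries. Fgb had 895, 858, 807 and 894 CPM in DKO and 12006, 11716, 7667 and 18078 CPM in WT. Fgg had 740.5, 605, 679.8 and 704 CPM in DKO and 9410.2, 8827, 6038 and 13270.5 CPM in WT. In each of the 3 genes all DKO libraries lay below all WT libraries, WT library 3 was the lowest of its group and WT library 4 the highest.

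Fold changes of the chains in DKO versus WT were nearly equal. They were -3.85 ± 0.45, adjusted p = 1.0e-07 for Fga, -3.84 ± 0.38, adjusted p = 6.2e-09 for Fgb and -3.78 ± 0.40, adjusted p = 1.6e-08 for Fgg. The log2 ratios between chains overlapped between DKO and WT, with a mean of 0.01 in DKO and 0.02 in WT for Fga to Fgb, and of -0.34 in DKO and -0.39 in WT for Fgg to Fgb. The chains are neighbours on chromosome 3, from 83007724 to 83049863. They were lower in each single knockout as well, at -1.56, -1.49 and -1.57 in Atg5 KO versus WT and -1.56, -1.39 and -1.26 in TSC1 KO versus WT for Fga, Fgb and Fgg. All 6 of these changes were called, but without WT library 4 the TSC1 KO calls of Fga (-1.30, adjusted p = 0.051) and Fgg (-0.99, adjusted p = 0.084) were lost.

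WT livers were not uniform in acute-phase genes. The 14 genes of an acute-phase list, which includes the serum amyloids and haptoglobin, held 1.20, 1.05, 1.02 and 0.949% of counts in the DKO libraries and 4.10, 3.39, 1.75 and 11.1% in the WT libraries. WT libraries 3 and 4 were again the extremes. Of the 14, 13 were lower in TSC1 KO than in WT, 11 in Atg5 KO and 11 in DKO, and none was called higher. Over all genes, in the same order, 7.6%, 11.3% and 32.3% were called lower and 8.79%, 18.6% and 37.1% higher. Hp, which encodes haptoglobin, was at 1057 ± 309 CPM in DKO and 15352 ± 11726 CPM in WT, and Hpx, the haem scavenger haemopexin, at 2856 ± 469 CPM in DKO and 14969.5 ± 8755 CPM in WT. The part of this spread among WT livers in the changes of fibrinogen and C3 was not tested, other than by leaving out both extreme libraries, an alternative chosen after seeing the data, after which DKO versus WT stood at -3.96 for Fga, -3.85 for Fgb and -3.81 for Fgg.

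**Figure D3:**
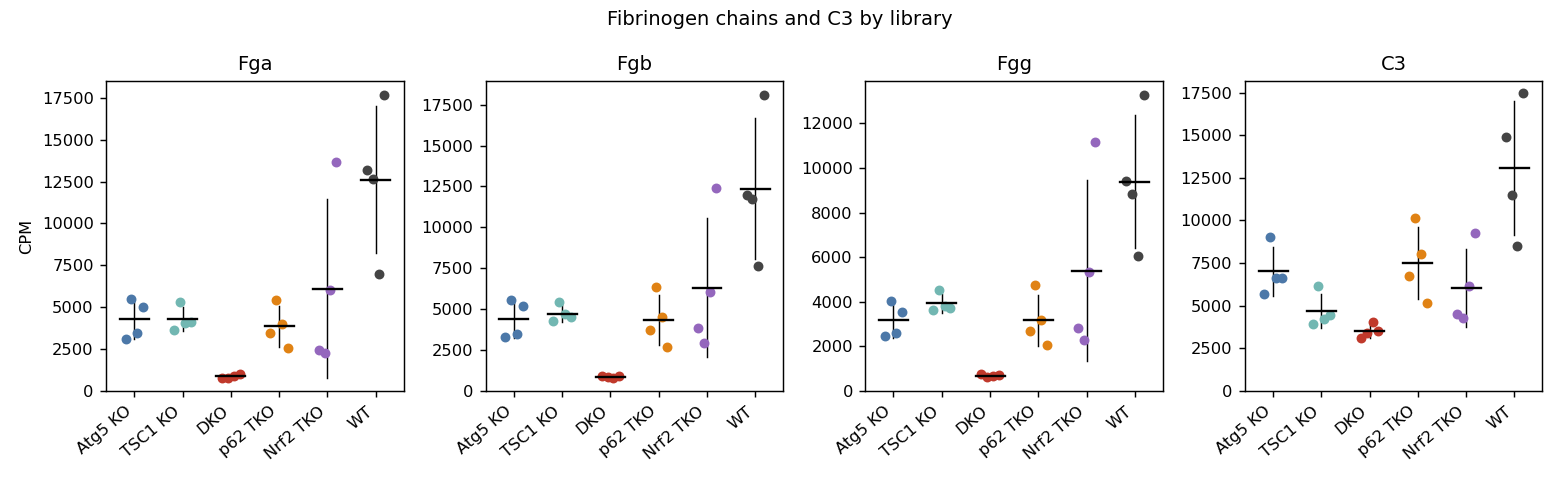
CPM of Fga, Fgb, Fgg and C3 in each library for the 6 genotypes, on linear axes from 0. Points are libraries, horizontal bars means and vertical bars SD (n = 4). DKO libraries are lowest in each fibrinogen panel, and Nrf2 TKO library 4 stands above the other 3.

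Fga and Fgb are shown because their upstream stretches both hold C/EBP, FOXA and STAT letters, and factors of the C/EBP and STAT families are known to act in the acute-phase response. The window of Fgg holds none of the 6 motifs, although its change was close to theirs.
Fga upstream (chr3:83025903-83026152, plus strand) holds 1 C/EBP, 1 FOXA and 1 STAT match.
Fga: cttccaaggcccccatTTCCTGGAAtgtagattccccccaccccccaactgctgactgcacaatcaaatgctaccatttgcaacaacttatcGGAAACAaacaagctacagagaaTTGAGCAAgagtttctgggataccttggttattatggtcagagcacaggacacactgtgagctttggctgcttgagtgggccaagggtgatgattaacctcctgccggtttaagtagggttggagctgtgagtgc
Fgb upstream (chr3:83049864-83050113, minus strand) likewise holds 1 match of each of the 3.
Fgb: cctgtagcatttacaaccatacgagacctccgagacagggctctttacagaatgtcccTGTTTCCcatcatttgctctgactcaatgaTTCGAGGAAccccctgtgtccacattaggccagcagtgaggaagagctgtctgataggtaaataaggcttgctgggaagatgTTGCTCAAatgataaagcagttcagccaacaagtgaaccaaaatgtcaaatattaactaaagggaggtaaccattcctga

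Among the procoagulant factors, all 6 were lower in DKO than in WT, with a median of -2.90. F9, the factor missing in haemophilia B, fell most of them, with 33.3, 36.0, 25.4 and 22.7 CPM in DKO and 337, 344, 306 and 323 CPM in WT (-3.48 ± 0.20, adjusted p = 2.2e-12). F2, which encodes prothrombin, had 310.2, 383, 247 and 253 CPM in DKO and 2276, 2266, 2277 and 2374 CPM in WT (-2.95 ± 0.20, adjusted p = 1.9e-11). F10, the protease that activates prothrombin, was at 92.7 ± 26.9 CPM in DKO and 807 ± 120.2 CPM in WT, and its cofactor F5 at 98.3 ± 11.6 CPM in DKO and 549 ± 43.3 CPM in WT. No DKO library reached the WT range in any of these genes. F7, which starts the cascade with tissue factor, and F13b, the carrier subunit of the fibrin-crosslinking enzyme, changed by -2.84 and -2.27.

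The contact system, which starts clotting on charged surfaces, was lower in DKO for all 4 genes. F11 had 11.3, 10.6, 11.1 and 7.82 CPM in DKO and 96.9, 131, 68.2 and 98.9 CPM in WT (-3.27 ± 0.25, adjusted p = 1.3e-10), and its neighbour on chromosome 8, Klkb1, which encodes plasma prekallikrein, changed by -3.04 ± 0.25, adjusted p = 4.1e-10. A gene annotated on the same strand overlaps Klkb1, so its counts are uncertain. F5, Fgg, Plg, Serpinc1, Ahsg, C2, Hc and Masp2 each overlap a gene on the opposite strand, and no source used here says whether counting used strand. F12 was at 162 ± 12.7 CPM in DKO and 697 ± 34.9 CPM in WT, and Kng1, the kininogen that releases bradykinin, at 903 ± 123 CPM in DKO and 2909 ± 410.5 CPM in WT (-1.69 ± 0.18, adjusted p = 1.6e-08). Kng1 kept the largest share of its WT level among the 4.

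Inhibitors of clotting fell beside the factors they restrain, with 1 near exception. All 6 anticoagulants were called lower in DKO than in WT, with a median of -2.49. Serpinc1, which encodes antithrombin, had 331, 376, 192 and 173 CPM in DKO and 2389, 2379.6, 2448 and 2172 CPM in WT (-3.13 ± 0.24, adjusted p = 1.2e-10). Its DKO libraries 3 and 4 were lower than the other 2, and all 4 lay far below WT. Proc, the zymogen of protein C, changed by -2.22, Proz, the cofactor of a factor Xa inhibitor, by -2.80, Serpind1, heparin cofactor II, by -2.58 and Serping1, the C1 inhibitor, by -2.40.

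Pros1 encodes protein S, the cofactor of activated protein C, which endothelial cells also make. It had 96.8, 133, 93.4 and 84.9 CPM in DKO libraries and 131, 125, 108 and 175 CPM in WT libraries. The groups overlapped through DKO library 2, and the change was the smallest of the 41 (-0.40 ± 0.17, adjusted p = 0.038), turning to 0.60 with total counts alone. The call was lost without DKO library 1, 3 or 4 or WT library 1 or 4, with an adjusted p of up to 0.22. Of 8 endothelial markers 4 were higher and 2 lower in DKO, where 37.1% and 32.3% of all genes were. Together they held 0.0234 to 0.0306% of counts in DKO and 0.00727 to 0.0155% in WT. Their summed CPM after TMM scaling overlapped, at 158 to 199 in DKO and 102 to 198 in WT. The part of these markers in the values of Pros1 was not tested. Pros1 was also the one member called higher in p62 TKO than in WT, with 188, 209.6, 184 and 189 CPM in p62 TKO (0.51 ± 0.17, adjusted p = 0.014; adjusted p up to 0.09 on leaving out 1 library). It was higher there than in every DKO and every Nrf2 TKO library, and the difference from Nrf2 TKO was 0.58 ± 0.17, adjusted p = 0.019.

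Genes of fibrinolysis and of the abundant plasma glycoproteins followed. Plg, the precursor of the clot-dissolving protease plasmin, was at 324 ± 38.4 CPM in DKO and 3599 ± 502 CPM in WT (-3.47 ± 0.22, adjusted p = 7.6e-12). Serpinf2, the plasmin inhibitor, and Cpb2, a carboxypeptidase that slows fibrinolysis, changed by -2.26 and -1.98. Vtn, vitronectin, changed by -2.56 and Hrg, histidine-rich glycoprotein, by -3.13 ± 0.24, adjusted p = 1.5e-10. Ahsg stood apart with 3472, 3853, 3006 and 3893 CPM in DKO and 8805, 8745, 7328 and 10440.1 CPM in WT, a change of -1.31 ± 0.18, adjusted p = 8.0e-07 without overlap.

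Ahsg, Hrg and Kng1 lie in the same region of chromosome 16 and encode proteins with cystatin-type domains. Ahsg ends at 22899449 and Hrg starts at 22951072, so the 2 do not adjoin. The log2 ratio of Ahsg to Hrg was 4.42 to 5.08 in DKO libraries and 2.69 to 3.03 in WT libraries, so these genes moved by different amounts. By contrast F7, F10 and Proz, next to each other on chromosome 8, changed by -2.84, -3.12 and -2.80. Per kilobase of exon Ahsg was the most abundant member in DKO livers (1619 CPM per kb), followed by C3 (683) and Vtn (361), while the fibrinogen chains stood at 227 to 326 CPM per kb.

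In the classical and alternative pathways all 6 members were called lower in DKO, with a median of -2.24. C3 had 3129, 3384, 4028 and 3499 CPM in DKO and 14887, 11521, 8483 and 17459.9 CPM in WT, without overlap. C4b, which forms the classical C3 convertase with C2, was at 371 ± 40.4 CPM in DKO and 2199 ± 476 CPM in WT (-2.57 ± 0.24, adjusted p = 3.2e-09), and its near copy C4a makes the split of reads between them uncertain. C1ra, a protease of the C1 complex, changed by -2.85, and Cfi, the protease that inactivates C3b, by -1.68. C2 was at 45.3 ± 4.29 CPM in DKO and 75.5 ± 9.66 CPM in WT (-0.74 ± 0.12, adjusted p = 6.7e-06), with the sign turned by total counts alone. Cfb, the alternative pathway protease, had the lowest level per kilobase of exon (0.305 CPM per kb in DKO, 3.19 in WT), at 0.862 ± 0.117 CPM in DKO and 9.01 ± 2.38 CPM in WT (-3.37 ± 0.34, adjusted p = 8.4e-09), with 15 to 17 reads per DKO library. A read-through gene annotated over C2 and Cfb on the same strand makes the counts of both uncertain.

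All 4 members of the lectin pathway were called lower in DKO, with a median of -3.10. Mbl1 and Mbl2 encode the mannose-binding lectins A and C, which recognise microbial sugars. Mbl1 (ENSMUSG00000037780, chr14:41151458-41159601) had 22.6, 28.2, 16.3 and 8.57 CPM in DKO and 375, 343, 304 and 463 CPM in WT (-4.30 ± 0.28, adjusted p = 1.2e-11). Mbl2 (ENSMUSG00000024863, chr19:30232942-30239687) had 112, 187, 53.6 and 18.6 CPM in DKO and 434, 366, 448 and 473 CPM in WT (-2.21 ± 0.40, adjusted p = 3.8e-05). Both fell without overlap, and DKO library 4 was the lowest for each.

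Outside DKO the lectins parted. Mbl1 had 161, 171, 153 and 159 CPM in Atg5 KO libraries and 286, 227, 265 and 252 CPM in TSC1 KO libraries, below all WT libraries, and was called in Atg5 KO (-1.20 ± 0.25, adjusted p = 0.00084) but not in TSC1 KO (-0.53 ± 0.24, adjusted p = 0.14). Mbl2 had 1179, 953, 794 and 823 CPM in TSC1 KO libraries, above all WT libraries (1.12 ± 0.38, adjusted p = 0.049). It had 1139, 787, 973 and 1059 CPM in Nrf2 TKO libraries, also above all WT libraries (1.20 ± 0.38, adjusted p = 0.017). The call in TSC1 KO was lost, with adjusted p up to 0.13, whenever any 1 of the 8 TSC1 KO and WT libraries was left out, and that in Nrf2 TKO was lost without a filter on low counts (adjusted p = 0.052) and with WT libraries 3 and 4 both left out (adjusted p = 0.064). In p62 TKO Mbl2 had 592, 901, 688 and 655 CPM and was not called against WT (0.72 ± 0.38, adjusted p = 0.12), although its libraries lay above all WT libraries. In Atg5 KO Mbl2 was at 553 ± 91.2 CPM, against 430 ± 45.7 CPM in WT. Its Atg5 KO range of 437 to 659 CPM overlapped the WT range of 366 to 473 CPM, and it was not called higher.

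The log2 ratio of Mbl2 to Mbl1 does not depend on the scaling of libraries. It ranged from 1.44 to 2.11 in Atg5 KO livers and from 1.58 to 2.07 in TSC1 KO livers. DKO libraries spread from 1.11 to 2.73. The ratio was 2.04 to 2.61 in p62 TKO, 2.1 to 2.69 in Nrf2 TKO and 0.03 to 0.56 in WT. Every library with a deletion thus lay above every WT library, and the mutant groups overlapped each other. The ratio was examined after the values were seen and is given as a description.

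**Figure D4:**
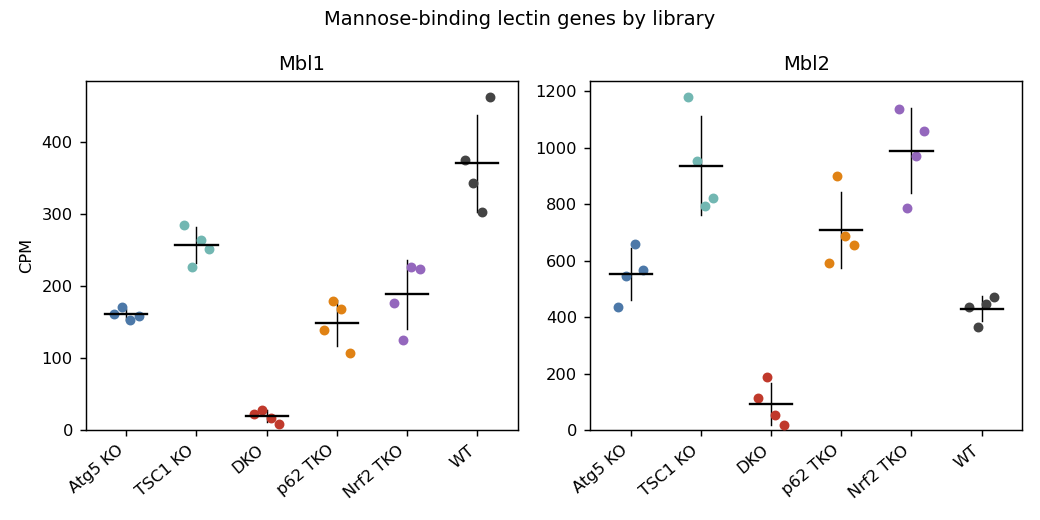
CPM of Mbl1 and Mbl2 in each library for the 6 genotypes, on linear axes from 0. Points are libraries, horizontal bars means and vertical bars SD (n = 4). Mbl1 is highest in WT, at 304 to 463 CPM. The mean of Mbl2 is above that of WT in every mutant genotype except DKO, and Mbl2 was called higher in TSC1 KO and Nrf2 TKO.

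The upstream stretches of the lectin pair are shown for comparison with each other.
Mbl1 upstream (chr14:41151206-41151455, plus strand) holds none of the 6 motifs.
Mbl1: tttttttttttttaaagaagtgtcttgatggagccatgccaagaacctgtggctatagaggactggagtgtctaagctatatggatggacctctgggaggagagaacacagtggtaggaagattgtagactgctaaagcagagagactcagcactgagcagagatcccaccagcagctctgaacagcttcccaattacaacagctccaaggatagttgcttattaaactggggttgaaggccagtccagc
Mbl2 upstream (chr19:30232678-30232927, plus strand) holds none either, which says only that these letters are not in this window.
Mbl2: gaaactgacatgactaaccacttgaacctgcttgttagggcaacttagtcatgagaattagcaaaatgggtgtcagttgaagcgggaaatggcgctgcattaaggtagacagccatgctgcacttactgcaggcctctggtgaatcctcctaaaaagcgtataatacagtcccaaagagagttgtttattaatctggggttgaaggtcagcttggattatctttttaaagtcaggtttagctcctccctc

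The MASP proteases, which act after lectin binding, fell by unequal amounts. Masp2 had 14.7, 18.2, 7.71 and 4.81 CPM in DKO and 187, 184, 154 and 195 CPM in WT (-3.99 ± 0.29, adjusted p = 8.2e-11). Masp1 had 16.9, 19.9, 31.5 and 37.3 CPM in DKO and 72.9, 74.7, 43.9 and 48.4 CPM in WT (-1.18 ± 0.28, adjusted p = 0.00083). DKO libraries 3 and 4 were the higher ones for Masp1 and the lower ones for Masp2.

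Each single deletion moved the members less than both together. In Atg5 KO 26 of the 41 were called lower than in WT, where 11.3% of all genes were, and 0 higher, where 18.6% were. No member was higher in Atg5 KO with DESeq2 or at an unadjusted p under 0.05, and total counts alone gave 1 higher and 11 lower, where 36.1% and 2.20% of all genes were. Leaving out 1 library at a time gave 14 lower without Atg5 KO library 1, 31 without library 2, 16 without library 3 and 15 without library 4, and 15 without WT library 1 or 4. In TSC1 KO 10 were called lower, where 7.6% of all genes were, and Mbl2 was called higher, where 8.79% were. The median log2 fold change was -0.57 in Atg5 KO and -0.44 in TSC1 KO, against -2.85 in DKO, and all 3 use the same WT libraries. The TSC1 KO count of lower genes was 4 without WT library 4, 6 without TSC1 KO library 1 or 3, and reached 19 with only these groups fitted. The 10 lower in TSC1 KO were the fibrinogen chains, C3, C4b, Cfb, F12, Proz, Vtn and Hrg. None of the 6 terminal genes was called in TSC1 KO, where their log2 fold changes ran from -0.76 to -0.06. Cholangiocyte markers held 0.0422 to 0.124% of counts in Atg5 KO, 0.0479 to 0.0844% in TSC1 KO and 0.0066 to 0.00915% in WT, with 10 of 12 called higher in each. Macrophage markers held 0.0363 to 0.107% in Atg5 KO (9 of 13 higher), 0.00751 to 0.0154% in TSC1 KO (9 lower) and 0.0184 to 0.0322% in WT. Stellate cell and fibroblast markers held 0.044 to 0.0869% in Atg5 KO (9 of 10 higher), 0.0176 to 0.0272% in TSC1 KO and 0.0119 to 0.0215% in WT. The part of these cell types in the changes was not tested.

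C8a shows the difference between the single deletions and DKO. It had 439, 843, 335 and 466 CPM in Atg5 KO libraries and 1079, 1272, 1103 and 1133 CPM in TSC1 KO libraries. Both groups lay below all WT libraries and far above all DKO libraries, with changes of -1.62 ± 0.48, adjusted p = 0.015 in Atg5 KO and -0.48 ± 0.47, adjusted p = 0.53 in TSC1 KO. DKO differed from Atg5 KO by -6.23 and from TSC1 KO by -7.37.

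DKO was lower than either single knockout for nearly every member. All 41 were called lower in DKO than in Atg5 KO, where 27.3% of all genes were, and none higher, where 29.2% were, with a median of -2.21. In DKO versus TSC1 KO 38 were called lower, where 30.0% of all genes were, and none higher, where 36.6% were, with a median of -2.44 (DESeq2 called 39 lower). In both comparisons no member was higher with DESeq2 or at an unadjusted p under 0.05. The 3 not called against TSC1 KO were Pros1 (-0.25), C3 (-0.42) and Masp1 (-0.60), all above 0 with total counts alone. For C3, TSC1 KO libraries had 3935, 6176, 4214 and 4436 CPM, which overlaps the DKO range.

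Whether the changes of the single deletions add up to that of DKO was tested with an interaction term on the log2 scale, where a negative value means that DKO lay lower than the sum. It was called below 0 for 31 of the 41, where 19.3% of all genes were, and above 0 for none, where 15.5% of all genes were (none with DESeq2 or at an unadjusted p under 0.05), with a median of -1.88 over the members and 0.03 over all genes. All 6 terminal genes were among the 31, led by C8a (-5.75 ± 0.72, adjusted p = 3.8e-06) and C6 (-4.91 ± 0.75, adjusted p = 3.6e-05), and all 6 procoagulant factors and all 4 contact genes as well. The 10 not called were the 3 fibrinogen chains, C3, C4b, C2, Cfb, Ahsg, Masp1 and Pros1. The interaction was -0.73 ± 0.57, adjusted p = 0.34 for Fga, -0.96 ± 0.48, adjusted p = 0.13 for Fgb, -0.96 ± 0.50, adjusted p = 0.15 for Fgg and 0.48 ± 0.37, adjusted p = 0.33 for C3.

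**Figure D5:**
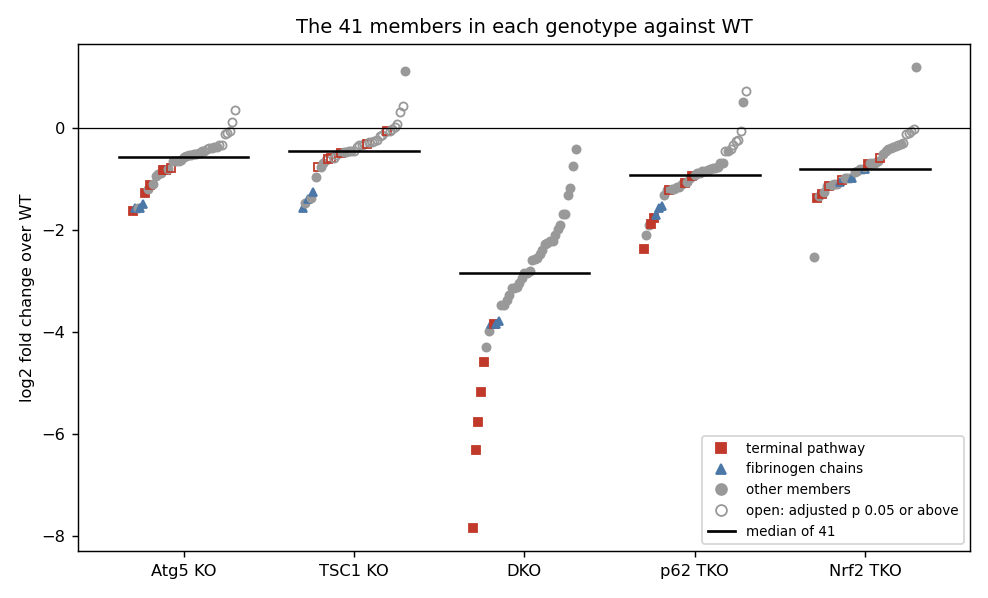
Log2 fold change of the 41 genes in each genotype over WT (y axis), sorted within a genotype. Squares are terminal complement genes, triangles fibrinogen chains and circles other members, open where not called, and the bar is the median. All 5 comparisons use the same WT libraries, and the medians are -0.57, -0.44, -2.85, -0.93 and -0.80.

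Loss of p62 or Nrf2 on top of the DKO genotype was accompanied by higher levels of nearly all members. In p62 TKO 40 of the 41 were called higher than in DKO, where 22.3% of all genes were, and none lower, where 21.5% were, with a median of 1.95. In Nrf2 TKO 39 were called higher than in DKO, where 26.7% of all genes were, and none lower, where 29.2% were, with a median of 2.16. Masp1 was not called in either (0.14 and -0.14), nor Pros1 in Nrf2 TKO (0.34), and the signs of these values depend on the scaling or on single libraries. With total counts alone 39 were higher in p62 TKO, where 10.2% of all genes were, and 35 in Nrf2 TKO, where 11.5% were, and C2 in Nrf2 TKO versus DKO stood at -0.25 in place of 0.42 with TMM. These comparisons share the DKO libraries with DKO versus WT, so the same low DKO values enter both. No member was lower than in DKO with DESeq2 or at an unadjusted p under 0.05 in either triple knockout. Hepatocyte markers held 2.14 to 3.1% of counts in DKO and 5.32 to 6.4% in p62 TKO. They held 8.62% or more in every Nrf2 TKO library, above the lowest WT library at 7.11%. Cholangiocyte markers held 0.264 to 0.426% of counts in p62 TKO, 0.157 to 0.326% in Nrf2 TKO and 1.08 to 1.62% in DKO. The part of hepatocyte and cholangiocyte RNA in these differences was not tested.

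C8a, C6, C9, C8g and C8b had the largest increases in both comparisons. C8a had 420.5, 576, 589 and 161 CPM in p62 TKO libraries (5.98 ± 0.59, adjusted p = 1.4e-07 versus DKO) and 708, 125, 1061 and 1043 CPM in Nrf2 TKO libraries (6.73 ± 0.61, adjusted p = 1.4e-08 versus DKO). C6 had 239.9, 329, 322 and 162 CPM in p62 TKO (5.12 ± 0.60, adjusted p = 1.2e-06 versus DKO) and 257, 31.7, 448 and 462 CPM in Nrf2 TKO (5.31 ± 0.60, adjusted p = 3.0e-07 versus DKO). Nrf2 TKO library 2 was by far the lowest of its group for both genes, yet above every DKO library. Without it the changes from DKO were 7.08 for C8a and 5.69 for C6. That library also had the highest share of cholangiocyte markers of its group, 0.326% of counts against 0.157 to 0.240% in the other 3, and the part of this in its low values was not tested.

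Fibrinogen was higher than in DKO in both triple knockouts. Fga had 3455, 5450.5, 3989 and 2543 CPM in p62 TKO libraries and 2459, 2292, 6005 and 13685 CPM in Nrf2 TKO libraries. Nrf2 TKO library 4 reached the WT range while libraries 1 and 2 were the lowest of that group, and the changes from DKO were 2.15 ± 0.42, adjusted p = 0.00027 in p62 TKO and 2.81 ± 0.43, adjusted p = 9.4e-06 in Nrf2 TKO. Acute-phase genes held 4.0% of counts in that library 4 and 1.34 to 1.74% in the other 3. Without it Fga stood at 2.11 versus DKO and at -1.82 versus WT.

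With TMM scaling most members were called lower than in WT in the triple knockouts. Fewer were with total counts alone, and ratios to Alb are given below. In p62 TKO 32 were called lower than in WT, where 22.9% of all genes were, and Pros1 higher, where 28.0% were. In Nrf2 TKO 27 were called lower, where 17.1% of all genes were, and Mbl2 higher, where 22.4% were. The medians were -0.93 and -0.80, and with total counts alone 20 members were lower in p62 TKO, where 6.23% of all genes were, and 19 in Nrf2 TKO, where 6.33% were. Cfb was lowest in Nrf2 TKO relative to WT (-2.53 ± 0.33, adjusted p = 5.0e-06), and C8b in p62 TKO (-2.37 ± 0.37, adjusted p = 2.4e-05).

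Between p62 TKO and Nrf2 TKO, 5 members were called. Pros1 was higher in p62 TKO, where 10.4% of all genes were, and F5 (-0.41), F11 (-0.84), Klkb1 (-0.68) and C8b (-1.08) were lower, where 7.11% of all genes were. Each of the 5 calls was lost when some single library was left out, and with only these 2 groups fitted none of the 4 lower calls held. F11 had 24.7, 24.5, 29.9 and 13.9 CPM in p62 TKO and 55.4, 34.8, 49.7 and 26.7 CPM in Nrf2 TKO, with overlap at Nrf2 TKO library 4.

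Alb, the albumin gene, was taken as a reference for hepatocyte RNA. It was at 6655 ± 646 CPM in DKO and 58765 ± 10609 CPM in WT (-3.14 ± 0.28, adjusted p = 1.5e-09). Ratios to Alb also carry the changes of Alb itself, and how far Alb follows hepatocyte RNA was not tested. Relative to Alb within each library, 7 members were lower in all DKO libraries than in all WT libraries, where 1.51% of all genes were, and 12 were higher, where 91.9% of all genes were. The 7 were the 6 terminal genes and Mbl1, with mean differences in the log2 ratio to Alb from -4.88 for C8a to -0.71 for Hc. The 12 higher ones included Pros1 (2.73), C2 (2.39), Masp1 (1.91) and Ahsg (1.82). For the other 22, the fibrinogen chains and prothrombin among them, DKO and WT libraries overlapped in this ratio. In Nrf2 TKO versus DKO only C8a (3.71) and C8g (1.19) were higher relative to Alb in all libraries, where 0.833% of all genes were, and 23 were lower, where 91.1% of all genes were. In p62 TKO versus DKO 23 were higher, where 2.37% of all genes were, and 4 lower, where 78.1% of all genes were. The 4 were F12, Ahsg, C2 and Masp1. Against WT, 24 members were higher relative to Alb in all p62 TKO libraries and 1 was lower, with overlap in 16. For Nrf2 TKO against WT, 1 was higher and 4 were lower, with overlap in 36. Shares over all genes are not given for these counts against WT, which are therefore a description.

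Related genes outside the 41 did not share one direction in DKO. Of 28 further coagulation genes tested, 13 were called lower and 14 higher than in WT, with a median of 0.35, beside 32.3% lower and 37.1% higher over all genes. Among the lower ones Lman1, a cargo receptor for factors V and VIII, was at 60.0 ± 7.15 CPM in DKO and 393 ± 31.2 CPM in WT (-2.71 ± 0.14, adjusted p = 1.2e-12), and Ggcx, the carboxylase of vitamin K dependent factors, at 25.2 ± 1.23 CPM in DKO and 98.4 ± 15.1 CPM in WT (-1.97 ± 0.13, adjusted p = 1.9e-11). Among the higher ones Plaur, the urokinase receptor, was at 28.7 ± 4.40 CPM in DKO and 0.252 ± 0.127 CPM in WT (6.75 ± 0.43, adjusted p = 9.2e-12). Anxa2, a cell-surface receptor on which plasmin is formed, was at 148 ± 31.4 CPM in DKO and 10.5 ± 2.77 CPM in WT (3.81 ± 0.28, adjusted p = 8.4e-11). Plg itself was lower, as given above.

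Among 29 further complement genes tested, 12 were called lower and 10 higher in DKO than in WT, with a median of -0.25. Neither share stands far from that over all genes, of which 32.3% were called lower and 37.1% higher. C1s1, the partner protease of C1r, changed by -2.36 ± 0.13, adjusted p = 2.5e-12, and C1rl, a C1r-like protease, by -4.17 ± 0.21, adjusted p = 8.1e-13. The subunits of C1q, made mainly by macrophages, were higher, with C1qa at 96.5 ± 27.6 CPM in DKO and 35.3 ± 5.34 CPM in WT (1.45 ± 0.30, adjusted p = 0.00017). Clu, which encodes clusterin, an inhibitor of the membrane attack complex, was at 8335 ± 787 CPM in DKO and 2969 ± 745 CPM in WT (1.49 ± 0.25, adjusted p = 1.3e-05). Of 13 macrophage markers, 8 were higher in DKO, where 37.1% of all genes were, and 4 lower, where 32.3% were. Among the 13, 4 (C1qa, C1qb, C1qc and Vsig4) are also among these complement genes. Together the markers held 0.0776 to 0.134% of counts in DKO and 0.0184 to 0.0322% in WT, and their part in these changes was not tested.

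Of 18 genes for liver transcription factors and interleukin 6 signalling, 15 were called lower in DKO than in WT. Over all genes 32.3% were called lower and 37.1% higher. The other 3 of the 18 were not called, and the median of the 18 was -1.48. Cebpa was at 130.2 ± 17.9 CPM in DKO and 538 ± 48.0 CPM in WT (-2.05 ± 0.14, adjusted p = 2.3e-11), and Hnf4a at 239 ± 27.0 CPM in DKO and 906 ± 52.5 CPM in WT (-1.92 ± 0.25, adjusted p = 5.5e-07). With total counts alone 7 of the 18 were lower, where 11.1% of all genes were, and 3 higher, where 70.4% of all genes were. Those 3 were Foxa1, Cebpd and Prox1, named here after their values were seen, at 0.01, 0.51 and 0.13 with TMM scaling.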

How the data were processed

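Polyadenylated liver RNA of 24 mouse libraries, 4 in each of 6 genotypes, was sequenced. Per the submitters' processing notes, the tools were Trimmomatic 0.36, HISAT2 2.1.0 and HTSeq, with the build GRCm38; no source used here gives the strand setting. The authors deposited raw counts per Ensembl gene for each library, with totals of 10494080 to 13057467, and depth sets the precision of low genes. Symbols and exon lengths came from GENCODE M21, which matched 32938 of 33019 identifiers. The 41 genes, the further lists and the tests were chosen with earlier results of these data known.

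Low counts were filtered with filterByExpr, leaving 15851 genes. One mean per genotype was fitted over all 24 libraries with edgeR 4.0.16 (R 4.3.3), TMM scaling and the quasi-likelihood test, and p-values were adjusted by Benjamini-Hochberg over all genes tested in each of 10 comparisons and 1 interaction. The procedure was tested on data simulated for DKO versus WT, with only those libraries fitted and 50 genes changed at each fold. It recovered 10% of 1.5-fold, 62% of 2-fold, 88% of 4-fold and 86% of 8-fold changes. Changed genes removed by the filter counted as not recovered. Of 14404 unchanged genes 8 were called. Small changes can therefore be missed, and a gene that was not called is not shown to be unchanged. In the real comparison 32.3% of genes were called lower and 37.1% higher, far more than were changed in the simulation. How the scaling behaves under such wide change was therefore not tested by it. Alternatives were DESeq2 1.42.0, edgeR with DESeq2's size factors or with unscaled totals, no filter, a replicate term, only the groups compared and leaving out each library; leaving out both extreme WT libraries was chosen after seeing the data. All 41 members could be named, with full values for those that changed most, the fibrinogen chains and those against the majority. From each further list, up to 6 genes with the smallest adjusted p in DKO versus WT, up to 4 with the highest mean CPM, and genes called against the majority of their list could be named. Upstream sequences are from RefSeq (GRCm38.p6), with 32 of 41 members matched.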

Additional observations from a re-analysis of the deposited data

Results flagged for a closer look

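In 8 of 246 sets of 4 libraries, 1 library stood apart from the other 3 of its genotype by more than Dixon's 95% critical value; chance alone gives about 1 in 20 such sets. Atg5 KO library 2 was the high one for F5 (500.1 CPM, the others 386 to 395), F7 (97.9 CPM, the others 61.8 to 65.6) and Proz (411 CPM, the others 318 to 333). TSC1 KO library 2 was high for C8b (493 CPM, the others 359 to 381), DKO library 2 for F13b (53.5 CPM, the others 42.7 to 44.2) and p62 TKO library 2 for Pros1 (209.6 CPM, the others 184 to 189). Nrf2 TKO library 2 was low for Ahsg (7341 CPM, the others 9033 to 9371), and WT library 4 was high for F2 (2374 CPM, the others 2266 to 2277).

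The effect of Tsc1 loss differed with the Atg5 genotype for 31 of the 41 genes by the interaction term of edgeR's quasi-likelihood test (adjusted p under 0.05), every one below 0 on the log2 scale. In the procoagulant factors it was -2.09 for F2, -1.95 for F5, -1.30 for F7, -2.49 for F9, -2.20 for F10 and -2.23 for F13b. In the contact system it was -2.77 for F11, -1.28 for F12, -1.08 for Kng1 and -2.95 for Klkb1. In fibrinolysis it was -2.19 for Plg, -1.55 for Serpinf2 and -1.29 for Cpb2. In the group of anticoagulants it was -1.88 for Proc, -1.70 for Proz, -2.67 for Serpinc1, -2.05 for Serpind1 and -1.30 for Serping1. In the plasma glycoproteins it was -0.99 for Vtn and -1.79 for Hrg. In the classical and alternative pathway it was -2.31 for C1ra and -0.97 for Cfi. In the terminal pathway it was -2.12 for Hc, -4.91 for C6, -5.75 for C8a, -3.75 for C8b, -4.30 for C8g and -3.52 for C9. In the lectin pathway it was -3.27 for Masp2, -2.56 for Mbl1 and -3.70 for Mbl2.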

How the results depend on the processing

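With total counts alone, the members called higher numbered 1 in Atg5 KO versus WT, 2 each in TSC1 KO versus WT and DKO versus WT, 1 in DKO versus Atg5 KO, 1 in DKO versus TSC1 KO, 3 in p62 TKO versus WT, 4 in p62 TKO versus Nrf2 TKO and 1 in the interaction, and those called lower 11 in Atg5 KO versus WT, 20 in p62 TKO versus WT, 1 in p62 TKO versus Nrf2 TKO and 1 in Nrf2 TKO versus DKO. With this scaling 36.1% of all genes were called higher and 2.20% lower in Atg5 KO versus WT. The shares were 70.4% higher in DKO versus WT and 6.23% lower in p62 TKO versus WT. Shares for the other counts are not given here, so those counts show only how the calls of members moved. Total counts alone turned the sign of C2 in Atg5 KO versus WT (0.01), DKO versus WT (0.26), DKO versus Atg5 KO (0.25), DKO versus TSC1 KO (0.11), Nrf2 TKO versus DKO (-0.25) and Nrf2 TKO versus WT (0.01). It turned Pros1 in DKO versus WT (0.60), DKO versus Atg5 KO (0.08), DKO versus TSC1 KO (0.61) and Nrf2 TKO versus DKO (-0.34), Masp1 in DKO versus TSC1 KO (0.27) and p62 TKO versus DKO (-0.34), C3 in DKO versus TSC1 KO (0.44), C8g in TSC1 KO versus WT (0.07) and Cfi in p62 TKO versus WT (0.08). By construction it moves all genes one way; the cause of the other changes was not tested. Leaving out 1 library at a time, Masp1 ranged from -0.03 (without DKO library 1; -0.02 without p62 TKO library 3) to 0.35 in p62 TKO versus DKO. Its range was -0.30 to 0.09 (without Nrf2 TKO library 1) in Nrf2 TKO versus DKO, with 0.07 without DKO library 4 and 0.06 without Nrf2 TKO library 2.

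Without a filter 0 members were higher and 6 lower in TSC1 KO versus WT, 0 higher in Nrf2 TKO versus WT and 1 lower in p62 TKO versus Nrf2 TKO. With only the groups compared, 2 were higher and 19 lower in TSC1 KO versus WT, 2 higher in p62 TKO versus WT and 0 lower in p62 TKO versus Nrf2 TKO. DESeq2 called 2 higher in p62 TKO versus Nrf2 TKO. Without WT libraries 3 and 4, 15 were lower in Atg5 KO versus WT, 0 higher and 5 lower in TSC1 KO versus WT, and 0 higher in Nrf2 TKO versus WT. Leaving out 1 library at a time, the lower calls ranged from 14 to 31 in Atg5 KO versus WT and 4 to 10 in TSC1 KO versus WT, and were 40 to 41 in DKO versus WT, 29 to 35 in p62 TKO versus WT, 19 to 28 in Nrf2 TKO versus WT, 0 to 6 in p62 TKO versus Nrf2 TKO and 31 to 32 in the interaction. The higher calls ranged from 0 to 0 in TSC1 KO versus WT, 0 to 1 in p62 TKO versus WT, 0 to 2 in p62 TKO versus Nrf2 TKO, 37 to 40 in Nrf2 TKO versus DKO and 40 to 40 in p62 TKO versus DKO. Shares over all genes are not given for these settings, so the counts show only how the calls of members moved.

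In no comparison did every pair of same-numbered libraries correlate above 0.1 in its deviations. The correlations ran from -0.28 to 0.24 over all comparisons, -0.06 to -0.02 in DKO versus WT and 0.02 to 0.07 in TSC1 KO versus WT. No comparison had every library correlating best with its own number (3 did in TSC1 KO versus WT). A replicate block left 0 members higher in TSC1 KO versus WT, where Mbl2 then had an adjusted p of 0.066, and Pros1 in DKO versus WT had 0.052. Of 363 changes of members, 355 stayed on their side of the threshold under the block.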
